A study of Homo sapiens with 2 samples.

Results

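The genes described here encode defences against lipid peroxidation that work without glutathione peroxidase 4 (GPX4), in HSC-3, a cell line established from a human squamous cell carcinoma of the tongue. They were chosen by name, as the rows of the deposited tables whose symbol is AIFM2, DHODH, GCH1, PTS, SPR, QDPR, NQO1, VKORC1 or VKORC1L1. All 9 were found among the 60616 genes listed, each by a single row, and all 9 reached 1 FPKM in each library. The series holds 2 stranded mRNA libraries. The DMSO library came from cells given the vehicle, 0.1% DMSO, and the FIN56 library from cells given 1 µM FIN56 for 48 h. No duration is labelled for the vehicle. Both came from the same line, cultured in DMEM with FBS and P/S, and the labels name no genetic change in either. The study intended this dose of FIN56 to be sublethal.

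Ferroptosis is a form of cell death in which iron-dependent peroxidation of membrane phospholipids outruns its repair. GPX4 reduces phospholipid hydroperoxides with glutathione. FIN56 is a small molecule known to cause loss of the GPX4 protein and to bind squalene synthase, an enzyme fed by the mevalonate pathway, which also supplies coenzyme Q. The routes that spare a cell without GPX4 share a principle, which is that a reducing agent traps the lipid radical and is then reduced again. FSP1, the product of AIFM2, regenerates ubiquinol and vitamin K hydroquinone at membranes with NAD(P)H. DHODH, the pyrimidine synthesis enzyme of the inner mitochondrial membrane, passes electrons to ubiquinone there. GCH1, PTS and SPR make tetrahydrobiopterin, itself a radical trap, and QDPR regenerates it. NQO1 is a cytosolic quinone reductase and a classical target of the transcription factor NRF2, whereas VKORC1 and VKORC1L1 reduce vitamin K epoxide and vitamin K in the endoplasmic reticulum.

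With 1 library per condition there was no replicate and no test between the conditions, so the values below compare 2 libraries. The libraries held 70184517 (DMSO) and 73062209 (FIN56) expected counts, that is, counts in which RSEM divides a read that fits several genes between them. The ratio given for a gene is its deposited FPKM in the FIN56 library over that in the DMSO library. Beside it stands the ratio of expected counts per library total, with a 95% exact Clopper-Pearson interval. The interval covers counting error alone, since reads lacking molecular identifiers cannot be taken as separate molecules and the variation between cultures was not measured. In bulk RNA, a change in which cells were left and a change in RNA per cell cannot be told apart. All 8 squamous epithelial markers examined, KRT5, KRT14 and TP63 among them, were at or above 1 FPKM in both. PTPRC, CD3E and COL1A2, markers of leukocytes and fibroblasts, were listed at 0 in both, while CD68 stood at 57.27 and 24.58 FPKM and COL1A1 at 4.25 and 2.19.

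The 2 quinone reductases at the head of the set, AIFM2 and NQO1, are both known NRF2 targets, and their upstream sequences are shown because the genes went in opposite directions in these libraries. The core of the antioxidant response element, to which NRF2 binds with small MAF proteins, was searched as TGACNNNGC on both strands. RefSeq (GRCh38.p14) gave a promoter, 250 bases before to 50 after the start, for 8 of the 9 genes, GCH1 being the one without an entry. In the AIFM2 promoter, printed on the gene's strand from chr10:70132776-70133075 (minus strand), the core is in capitals and reads GCTGAGTCA, which is TGACTCAGC on the opposite strand.
AIFM2: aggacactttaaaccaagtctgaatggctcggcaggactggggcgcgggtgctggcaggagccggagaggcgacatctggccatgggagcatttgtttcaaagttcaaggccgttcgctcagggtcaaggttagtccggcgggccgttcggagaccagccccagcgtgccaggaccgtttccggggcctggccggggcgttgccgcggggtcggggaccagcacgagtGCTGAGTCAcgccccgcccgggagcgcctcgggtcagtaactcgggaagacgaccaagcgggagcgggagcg
The 300 bases of NQO1 hold no such core, but it is present on the gene's strand further upstream, where 129 bases of GRCh38, chr16:69726947-69727075 (minus strand), read as follows, with the core in capitals.
NQO1: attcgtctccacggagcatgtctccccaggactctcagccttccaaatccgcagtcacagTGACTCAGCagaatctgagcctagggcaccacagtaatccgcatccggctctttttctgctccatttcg
Counted from the RefSeq starts, the same 9 bases, TGACTCAGC, lie 22 bases before that of AIFM2 on one strand and 455 bases before that of NQO1 on the other. The outermost GENCODE starts, used for the gene positions given with the values, lie further upstream, so the NQO1 site is 347 bases before that start and the AIFM2 site is 87 bases inside the gene. Cores with other middle bases were found in the promoters of VKORC1, as TGACTCGGC, and VKORC1L1, as TGACTGGGC. None was found in the 1050 bases from 1000 before to 50 after the start of DHODH, PTS, SPR or QDPR. Such a core occurs in 13.3% of all 35116 promoters of 300 bases and in 33.7% of windows of 1050 bases, whereas TGACTCAGC itself occurs in 0.561% and 1.53%. A match describes the sequence and does not show that a factor was bound.

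In HSC-3 cells the transcripts of these defences differed widely in level (TPM, which is scaled for gene length). In the DMSO library NQO1 stood at 613 TPM, VKORC1 at 56.66, PTS at 49.3, SPR at 28.85, AIFM2 at 28.51, VKORC1L1 at 14.42, GCH1 at 9.62, DHODH at 6.88 and QDPR at 4.04. In the FIN56 library the order was the same but for GCH1, at 15.22 TPM, which passed VKORC1L1, at 14.86. Neighbours in this order were separated by more than their counting intervals with 1 exception in each library, SPR with AIFM2 under DMSO and GCH1 with VKORC1L1 under FIN56. NQO1 alone made up 75.6% of the summed TPM of the 9 genes with DMSO and 68.5% with FIN56. The sum of all 9 went from 812 to 705 TPM, and that of the 8 genes other than NQO1 from 198 to 222 TPM. For comparison, GPX4 stood at 367 and 372 TPM, so that NQO1 exceeded it 1.67 times with DMSO and 1.3 times with FIN56.

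**Figure D1:**
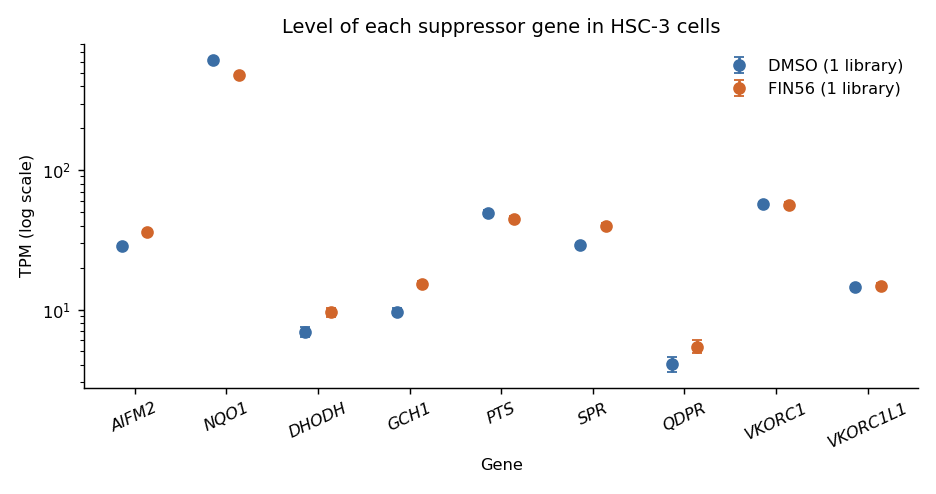
TPM of each of the 9 genes (log axis) in the DMSO library (blue) and the FIN56 library (orange), 1 library each, with bars for the 95% counting interval, which is often smaller than the point. NQO1 is far above the rest in both libraries, at 613 and 483 TPM, and QDPR is lowest, at 4.04 and 5.42.

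Between the libraries, the counting interval lay above 1 for 5 of the 9 genes (GCH1, DHODH, SPR, QDPR and AIFM2), below 1 for 3 (NQO1, PTS and VKORC1L1) and on both sides of it for VKORC1. GCH1 alone reached a ratio of 1.5, and no gene was at 1/1.5 or less. Among all 12638 genes that reached 1 FPKM in each library, 3.87% had a ratio of 1.5 or more and 6.77% one of 1/1.5 or less, against 14.7% and 17.3% of the 24454 genes above 0 in both. A single gene of 9 is too few to be set apart from these backgrounds. Counting intervals lay above 1 for 38.0% and below 1 for 35.9% of the 12638 genes, since at this depth counting error is small for most expressed genes. The median log2 FPKM ratio was 0.31 over the 9 genes, 0.00 over the 24454 genes and 0.03 over the 12638.

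**Figure D2:**
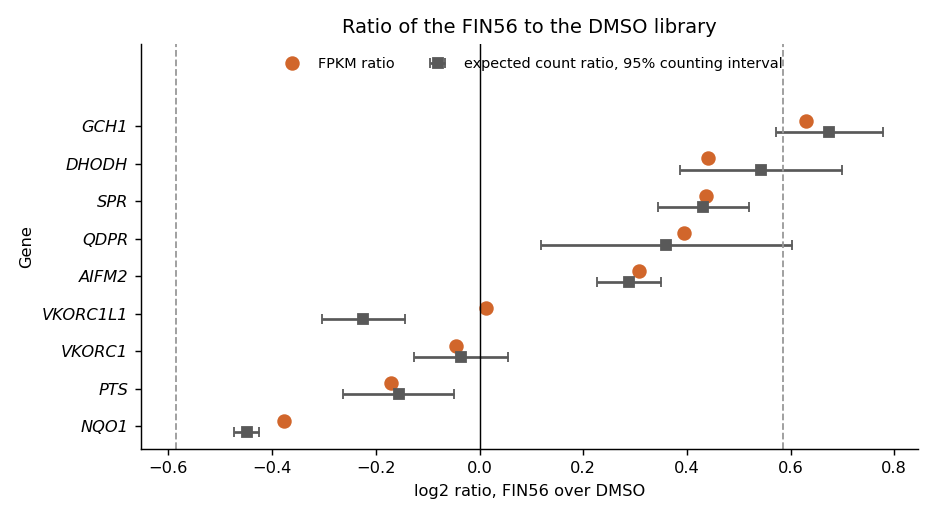
The log2 ratio of the FIN56 to the DMSO library for each gene by FPKM (circles) and by expected counts per library total (squares, with 95% counting intervals), with dashed lines at ratios of 1.5 and 1/1.5. GCH1 is highest, at a log2 FPKM ratio of 0.63, NQO1 lowest, at -0.38, and the circle and the square of VKORC1L1 lie on either side of 0.

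Of the 4 enzymes of tetrahydrobiopterin, GCH1 was past the threshold of 1.5, and PTS, SPR and QDPR lay between the thresholds. The count intervals of SPR and QDPR also lay above 1, as did those of 38.0% of the 12638 genes. GCH1, GTP cyclohydrolase 1, catalyses the first and rate-limiting step. It lies on chromosome 14, minus strand, between positions 54842008 and 54902826 of GRCh38 (GENCODE release 44), and its canonical transcript has 6 exons. It had 6.43 FPKM with DMSO and 9.95 with FIN56, a ratio of 1.55, from 1215 and 2019 expected counts. The count ratio was 1.60, with an interval of 1.49 to 1.72. Of the 12638 genes, 97.0% had an FPKM ratio at or below that of GCH1. This is the only one of the 9 genes past the threshold, and it passed by a small margin, as its count interval includes 1.5 and 2 alternatives brought it below 1.5 (1.21 by the deposited rlog values and 1.47 with 1 FPKM added to both libraries).

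PTS, 6-pyruvoyltetrahydropterin synthase, which acts next, went the other way. It lies on the plus strand of chromosome 11 (112226367 to 112269955) and had an FPKM of 32.96 with DMSO and 29.28 with FIN56, a ratio of 0.888, and a count ratio of 0.898 (interval 0.833 to 0.967). The transcript of the second step was therefore 5.12 times as abundant as that of the first with DMSO and 2.94 times with FIN56, in TPM. SPR, sepiapterin reductase, which completes the synthesis (chromosome 2, plus strand, 72887382 to 72892158), had 19.29 and 26.12 FPKM, a ratio of 1.35, and a count ratio of 1.35 (1.27 to 1.43). QDPR, quinoid dihydropteridine reductase, which recycles the spent cofactor (chromosome 4, minus strand, 17460261 to 17512206), was the lowest of the 9 genes at 2.7 and 3.55 FPKM. Its ratio was 1.31, and its count ratio of 1.28 had the widest interval, 1.09 to 1.52, since it rested on 250 and 334 expected counts. Summed over the 4 enzymes, the level went from 91.8 to 105 TPM. The counts of GCH1, SPR and QDPR were whole, so RSEM left no trace of dividing their reads with other genes, whereas PTS had 1462.78 with DMSO.

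The partners of this pathway were read from a list of 6 accessory genes. In it 1 gene was at 1.5 or more, 1 at 1/1.5 or less and 4 lay between, with a median log2 ratio of 0.13. Among the 12638 genes the shares past these thresholds were 3.87% and 6.77%. The gene at the upper end was GCHFR, the feedback regulator that binds the GCH1 protein, with 2.19 FPKM under DMSO and 3.85 under FIN56. Its ratio was 1.76, and its count ratio of 1.82 had an interval of 1.41 to 2.36 on 92.57 and 175.99 expected counts. The gene at the lower end was PCBD1, pterin-4a-carbinolamine dehydratase, which acts before QDPR in the recycling of the cofactor, at 16.13 and 9.75 FPKM. Its ratio was 0.604 and its count ratio 0.605 (0.537 to 0.680). The enzymes for which tetrahydrobiopterin is the classical cofactor were barely detected. Of 8 genes, with TH, TPH1 and 3 nitric oxide synthases among them, none had an FPKM above 0.13 in either library, and all 8 together held 49 expected counts with DMSO and 21.76 with FIN56. The 2 of them above 0 in both libraries, TH and TPH1, had ratios at or below 1/1.5 (median log2 ratio -2.14) on 5 and 2 counts for TH and 42 and 14.76 for TPH1.

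**Figure D3:**
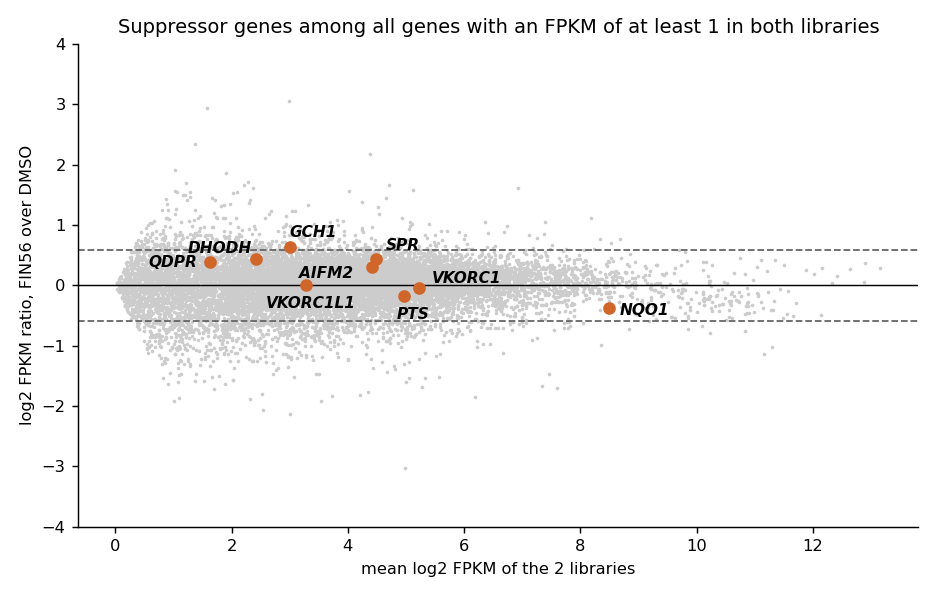
The log2 FPKM ratio of FIN56 over DMSO against the mean log2 FPKM of the 2 libraries, for the 12638 genes at or above 1 FPKM in each (grey), with the 9 genes in orange and dashed lines at ratios of 1.5 and 1/1.5. GCH1 lies just above the upper line, the others lie between the lines, and NQO1 stands apart by its level.

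In the membrane quinone route, the transcript of the enzyme FSP1 was higher in the FIN56 library, though below the threshold. AIFM2 (chromosome 10, minus strand, 70098223 to 70132934) had an FPKM of 19.06 with DMSO and 23.59 with FIN56, a ratio of 1.24. Its count ratio was 1.22 (1.17 to 1.27) on 3859.09 and 4907.17 expected counts. It lay at the 83.0 percentile of the FPKM ratios of the 12638 genes, below the threshold. Some of its exon bases, 986 of them, are shared with MACROH2A2, a histone gene on the opposite strand with 1235.91 and 1067.83 expected counts, and whether the counting used strand is not given in the sources used here. FSP1 reaches membranes through N-myristoylation. A list of 4 genes, the myristoyltransferases and the AIF family, had none at 1.5 or more, 1 at 1/1.5 or less, and a median log2 ratio of -0.03. Of the 24454 genes above 0 in both libraries, 14.7% and 17.3% were past these thresholds. Of the enzymes that attach the lipid, NMT1 had a ratio of 0.93 and NMT2 1.27. Their count ratios were nearer to 1, at 0.969 (0.946 to 0.992) and 1.10 (1.05 to 1.16). In the same family as AIFM2, AIFM1, a mitochondrial flavoprotein, had a ratio of 1.04, with a count interval that included 1 (0.991 to 1.08). AIFM3 was the gene of this list at 1/1.5 or less, at 1.32 and 0.45 FPKM, a ratio of 0.341 on 127 and 55.02 counts.

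Both FSP1 and DHODH act on coenzyme Q, and 13 genes of its synthesis were listed beside them. None had a ratio of 1.5 or more and 2 were at 1/1.5 or less, against 3.87% and 6.77% of the 12638 genes. The median log2 ratio was -0.07, and 2 genes of 13 are too few to be set apart from these shares. COQ2, which joins the isoprenoid tail to the ring, had 13.02 FPKM with DMSO and 7.12 with FIN56 (ratio 0.547, count interval 0.489 to 0.588). COQ4, which acts later in the pathway, had 39.22 and 25.58 FPKM (ratio 0.652, count interval 0.588 to 0.655).

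DHODH (chromosome 16, plus strand, 72008588 to 72027664) had an FPKM of 4.6 with DMSO and 6.24 with FIN56, a ratio of 1.36. By counts, 562 and 852, the ratio was 1.46 with an interval of 1.31 to 1.62, which includes 1.5. The gap between the measures arises from the effective gene length that RSEM computes from the mix of transcripts in each library. For DHODH the length implied by the deposited values was 1741 bases with DMSO and 1869 with FIN56. Of the other pyrimidine genes, 1 of 7 was at 1.5 or more (3.87% of the 12638 genes) and none at 1/1.5 or less (6.77%). The median log2 ratio of the 7 was 0.07. The gene at 1.5 or more was UMPS, which carries out the steps after DHODH, at 31 and 46.62 FPKM, a ratio of 1.504. Its count ratio of 1.38 (1.32 to 1.45) stayed below 1.5. CAD, the enzyme of the steps before DHODH, was lower, at 20.68 and 17.42 FPKM (ratio 0.842, count ratio 0.777, interval 0.753 to 0.802).

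NQO1 was the gene with the most reads and the lowest ratio. It lies on the minus strand of chromosome 16 from 69706996 to 69726668, and it had 410.15 FPKM with DMSO and 315.91 with FIN56, a ratio of 0.770. The count ratio was 0.733, with an interval of 0.720 to 0.745. A non-coding RNA gene on the opposite strand shares 575 of its exon bases and held 65.77 and 40.55 expected counts, against 31383 and 23935 for NQO1. In 14.2% of the 12638 genes the FPKM ratio was this low or lower. Of the other 12 genes of the NRF2 list, 10 had a ratio above 1, against 6764 of the 12638 genes. By FPKM all 12 lay between the thresholds, with a median log2 ratio of 0.21. HMOX1 had the highest FPKM ratio of them, 1.36. Its count ratio of 1.54, on 119 and 191 expected counts, was past 1.5, with an interval (1.22 to 1.96) that includes 1.5. The count intervals of 8 of the 12 lay above 1, against 4803 of the 12638 genes. These 8 are among the 10 genes with a ratio above 1, so the 2 counts are not separate results. The intervals of ME1 (0.962 to 1.07) and OSGIN1 (0.916 to 1.22) included 1. TXNRD1, thioredoxin reductase, had a ratio of 1.23, GCLC, the catalytic subunit of glutamate-cysteine ligase, 1.18, SLC7A11, the cystine transporter, 1.17, and NQO2, the relative of NQO1, 1.19. By counts the ratio of NQO2 was smaller, 1.06 (1.003 to 1.13). NFE2L2, which encodes NRF2, had a ratio of 1.15, and KEAP1, its repressor, 1.26. The lowest ratios of this list, 0.955 for GCLM and 0.978 for SRXN1, were above that of NQO1, and their count intervals included 1 (0.911 to 1.00 and 0.948 to 1.01). The list does not hold all known NRF2 targets, so it does not set NQO1 apart from the others. PIR and GSTP1, left out of it, were also lower with FIN56, with log2 FPKM ratios of -1.19 and -0.33. Targets outside the list were not counted. These lists were written with earlier results of these libraries known, so their counts are a description. The sequences printed above belong to this contrast. AIFM2 and NQO1 hold the same 9 bases of the antioxidant response element, and their FPKM ratios were 1.24 and 0.770. Whether NRF2 bound either site or acted on either gene was not tested. NQO1 transcripts were 21.5 times as abundant as those of AIFM2 with DMSO and 13.4 times with FIN56, in TPM.

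**Figure D4:**
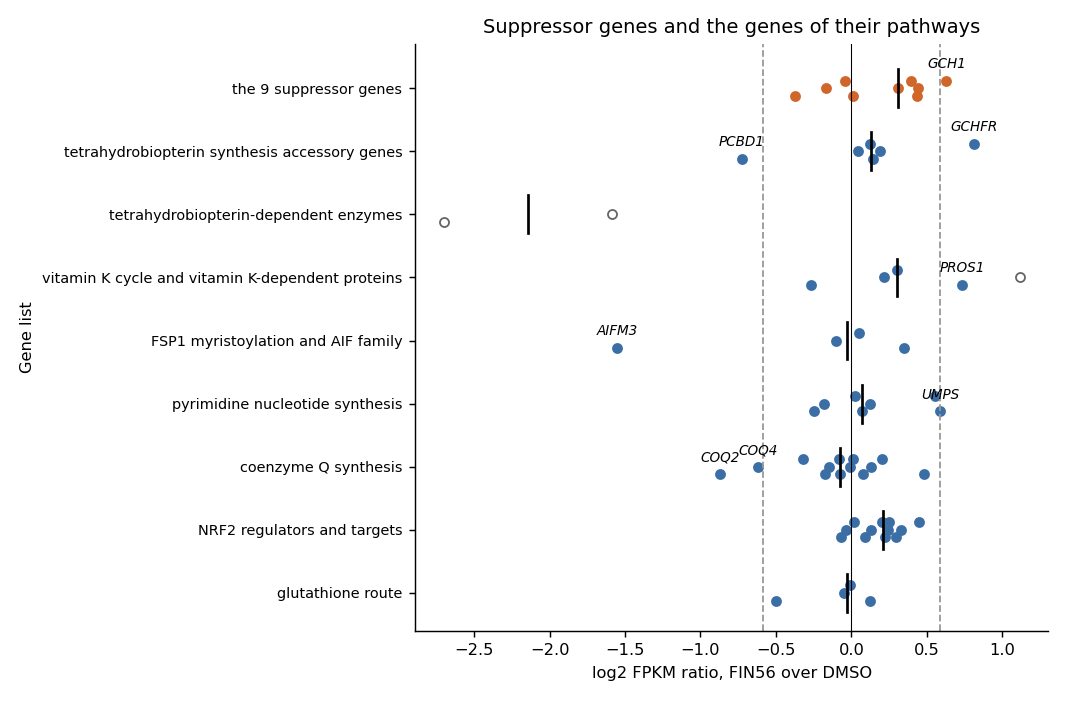
The log2 FPKM ratio of FIN56 over DMSO for each gene with an FPKM above 0 in both libraries, for the 9 genes (orange) and 8 lists of related genes (blue), with black bars for medians, dashed lines at ratios of 1.5 and 1/1.5, and open circles for genes under 100 expected counts over the 2 libraries. Labelled genes are those past a threshold with at least 100 counts, and the NRF2 list lies wholly between the lines with a median of 0.21.

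The reductases of vitamin K showed little difference. VKORC1, the target of warfarin (chromosome 16, minus strand, 31090842 to 31095980), had an FPKM of 37.88 with DMSO and 36.73 with FIN56, a ratio of 0.970, and its count interval of 0.917 to 1.04 included 1. It shares 761 exon bases with a gene on the same strand that held 41.44 and 48.29 expected counts, small beside its own 1995.36 and 2026.11. Its relative VKORC1L1 (chromosome 7, plus strand, 65873074 to 65959563) had 9.64 and 9.72 FPKM, a ratio of 1.01, yet its expected counts went from 2647.91 to 2360.28, a count ratio of 0.856 with an interval of 0.810 to 0.905. The direction for VKORC1L1 thus depends on the measure. The implied effective length was 3914 bases with DMSO and 3324 with FIN56, a length ratio of 0.849, which lies below the central 90% of such ratios over the 12638 genes (0.867 to 1.09). Of these genes, 7.90% had an FPKM ratio and a count ratio on opposite sides of 1. In both libraries VKORC1 transcripts were more abundant than those of VKORC1L1, 3.93 times with DMSO and 3.78 times with FIN56, in TPM.

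Among the other genes of the vitamin K cycle, GGCX, the gamma-carboxylase that uses vitamin K hydroquinone, had 25.82 and 21.42 FPKM, a ratio of 0.830, with a count ratio of 0.714 (0.683 to 0.747). In the list of 6 genes, 5 were above 0 in both libraries, 2 of these at 1.5 or more and none at 1/1.5 or less. The shares of the 24454 genes above 0 in both were 14.7% and 17.3%. The median log2 ratio of the 5 was 0.30. The 2 at 1.5 or more were the vitamin K-dependent proteins PROS1, with 154 and 259 expected counts (FPKM ratio 1.66, count interval 1.32 to 1.99), and MGP, with 3 and 4 counts.

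GPX4, against which these routes are defined, had an FPKM of 245.57 with DMSO and 243.55 with FIN56, a ratio of 0.992, and its count interval of 0.958 to 1.01 included 1. In the list of 4 glutathione genes that holds it, none was past either threshold and the median log2 ratio was -0.03. GSS, glutathione synthetase, was the lowest at 0.706, with 49.43 and 34.92 FPKM. Transcript levels do not measure the GPX4 or FSP1 protein.

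**Figure D5:**
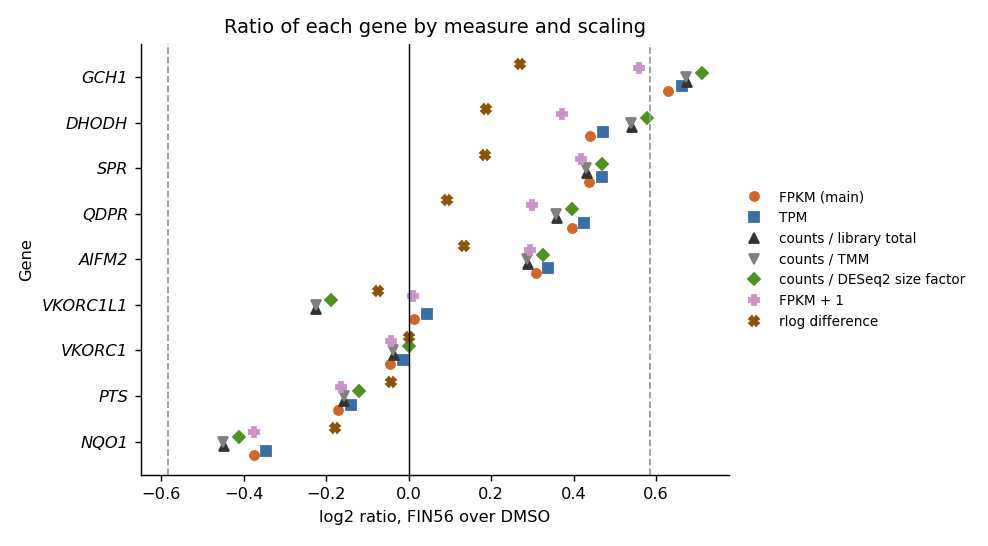
The log2 ratio of FIN56 over DMSO for each of the 9 genes by FPKM, TPM, expected counts under 3 scalings, FPKM with 1 added, and deposited rlog values, with dashed lines at ratios of 1.5 and 1/1.5. GCH1, DHODH, SPR, QDPR and AIFM2 lie right of 0 and PTS and NQO1 left of 0 by every measure shown, while VKORC1 and VKORC1L1 change sides.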

How the data were processed

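Total RNA of 1 DMSO and 1 FIN56 culture of HSC-3 cells was made into stranded mRNA libraries. By the methods given for the tumor samples of the study, taken here to hold for these libraries, the authors trimmed reads with AfterQC, checked them with FastQC 0.11.7, mapped them to GRCh38 with STAR 2.6.1a and ran RSEM 1.3.1. Those methods name release 94 of the reference for the tumor samples, and the release is not taken to hold for these libraries. The expected counts of RSEM, deposited by the authors, are unscaled estimates. The FPKM and TPM values deposited by the authors carry 2 decimals and are scaled for depth and effective length. The log2 values deposited by the authors are rlog values made with DESeq2 1.26.0.

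The 9 genes and the 8 lists of related genes (60 genes) were chosen with earlier results of these data known. All 9 genes are named. Of list genes, those with at least 100 counts in both libraries together and past a threshold are named, with GPX4, GCHFR, GGCX, NQO2, CAD, UMPS, AIFM1, NFE2L2 and KEAP1 whatever their values. The values of some single list genes are not reported here. TH, TPH1, MGP, NMT1, NMT2, TXNRD1, GCLC, GCLM, HMOX1, SLC7A11, SRXN1, ME1, OSGIN1 and GSS were named after their values were seen. So were PIR and GSTP1, which are in none of the lists. FPKM ratios were compared with 1.5, the study's criterion for higher genes, and with 1/1.5, which was set here for lower genes. Exact Clopper-Pearson intervals (95%) used rounded expected counts scaled by library totals, and intervals of TPM levels were exact Poisson intervals of those counts. A count was called whole within 0.005. Effective lengths were computed as counts per FPKM and library total. Positions came from GENCODE release 44, and promoter sequences from RefSeq. All 35116 promoters matched the GRCh38 sequence used for longer windows. The alternatives were TPM, rlog values, edgeR 4.0.16 TMM, DESeq2 1.42.0 size factors, library totals, 2 filters, 2 pseudocounts and a threshold of 2. Steps were tested on simulated data. Python 3.11.15 and R 4.3.3 were used.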

Additional observations from a re-analysis of the deposited data

How the results depend on the processing

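No paired analysis was possible because there was 1 library of each kind, and for that reason none could be left out. The single gene at a ratio of 1.5 or more, GCH1, became 0 genes with rlog values, with a pseudocount of 1 FPKM and at a threshold of 2, and it was the gene called under the other 7 alternatives, of which 2 are filters that cannot change the ratio of a gene. The rlog transformation draws the libraries towards each other, and a pseudocount lowers ratios by construction. No gene was at 1/1.5 or less under any of the 10 alternatives. The median log2 ratio of 0.31 became 0.094 with rlog values and lay within the counting interval of its middle gene under the other alternatives. AIFM2, DHODH, GCH1, SPR and QDPR stayed above 1, and PTS and NQO1 below 1, under all 7 alternatives to the measure, scaling or pseudocount. VKORC1L1 lay on the other side of 1 in 4 of these 7 and VKORC1 in 2. The median log2 ratio of the 24454 genes, or of the 24406 with a value, moved by less than 0.1 under each scaling. Counting error was widest for QDPR. The count intervals of GCH1, DHODH and QDPR include 1.5 and that of VKORC1 includes 1, and the lack of replicates limits all 9 genes.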
